A study of Mus musculus with 6 samples.

Results

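The genes examined here encode the machinery that brings proteins into the endoplasmic reticulum (ER), folds them there, removes those that misfold, and senses overload. They were chosen by name as 37 genes with a role in ER folding and stress, of 55487 genes in the count table. They were followed in polyadenylated RNA of megakaryocyte-erythroid progenitors, the marrow cells that give rise to red cells and platelets. By the labels the cells were sorted from C57BL/6 mice of wild type genotype aged 8 weeks, but the extraction protocol given for all 6 libraries speaks of ground tissue, so the material that entered the libraries is uncertain. The control group and the group fasted for 6 h had 3 libraries each, and the study asked how a short fast acts on red cell formation. What the control mice ate, and whether a library came from 1 animal or a pool, is not stated in the labels, so p-values measure the spread between these libraries, which may be partly technical.

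Secretory and membrane proteins enter the ER through the Sec61 channel, where signal peptidase cuts off the leader peptide and the translocon-associated protein complex assists entry. Inside, Hspa5 (BiP) and Hsp90b1 (GRP94) act as chaperones with their DnaJ partners, calreticulin and calnexin bind sugar-bearing chains, and protein disulfide isomerases form disulfide bonds. Misfolded chains are sent out through the Syvn1 and Sel1l ubiquitin ligase complex and the derlins to be degraded. When folding capacity falls short, the sensors Ern1 (IRE1), Atf6 and Eif2ak3 (PERK) start the unfolded protein response, in which Atf6 and the spliced form of Xbp1 raise transcription of chaperone and degradation genes.

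Many of these genes carry an ER stress response element in their promoter, and its letters are shown because they link members of different roles. Of the 37 genes, 29 had a promoter in the RefSeq table of GRCm38.p6, which spans 250 bases before to 50 bases after an annotated start. Those without an entry were Atf6, Derl1, Hyou1, Manf, Sec11c, Sec61a1, Spcs3 and Ssr2. The element (ERSE) reads CCAAT, 9 bases of any kind and CCACG. Searched on both strands, it was found in 9 of these 29 genes (31.0%) and in 37 of 27025 genes in the table (0.137%). A related element (ERSE-II), ATTGG, any base and CCACG, was found in 2 of the 29 and in 12 of all 27025 genes (0.0444%). ERSE and ERSE-II share the letters CCACG but were not found at the same place in a member. TGACGTGG, the core of the unfolded protein response element, was in 0 of the 29 windows and in 0.714% of all genes. A match describes letters in this window only. The sites are given with 5 flanking bases, read in the direction of the element, with the fixed letters in capitals. The first 10 are ERSE and the last 2, of Dnajb11 and Herpud1, are ERSE-II.
Calr, chr8:84847070-84847098, + strand: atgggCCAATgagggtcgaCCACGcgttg
Canx, chr11:50325795-50325823, - strand: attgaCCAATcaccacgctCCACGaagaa
Creld2, chr15:88819515-88819543, - strand: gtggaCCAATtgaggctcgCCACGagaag
Derl3, chr10:75893237-75893265, - strand: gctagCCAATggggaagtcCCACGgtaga
Dnajc3, chr14:118937822-118937850, + strand: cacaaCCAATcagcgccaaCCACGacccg
Hsp90b1, chr10:86705528-86705556, + strand: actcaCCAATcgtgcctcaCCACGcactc
Hsp90b1, chr10:86705633-86705661, - strand: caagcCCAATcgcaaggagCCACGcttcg
Hspa5, chr2:34772020-34772048, + strand: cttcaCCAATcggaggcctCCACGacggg
Pdia6, chr12:17266486-17266514, + strand: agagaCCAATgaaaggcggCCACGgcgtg
Syvn1, chr19:6046527-6046555, + strand: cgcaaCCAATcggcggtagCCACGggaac
Dnajb11, chr16:22857847-22857867, + strand: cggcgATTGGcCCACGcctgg
Herpud1, chr8:94386372-94386392, + strand: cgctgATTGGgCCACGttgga

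The 250 bases before the annotated start of 3 of these genes are shown because their values by library, given further on, differ in pattern. They are Hsp90b1 (lower in all fasted libraries), Hspa5 (overlapping groups) and Syvn1 (higher in all fasted libraries). Each is read along the gene's own strand, with the fixed letters of ERSE in capitals, so that the second element of Hsp90b1 appears as its reverse complement.
Hsp90b1, chr10:86705445-86705694, - strand: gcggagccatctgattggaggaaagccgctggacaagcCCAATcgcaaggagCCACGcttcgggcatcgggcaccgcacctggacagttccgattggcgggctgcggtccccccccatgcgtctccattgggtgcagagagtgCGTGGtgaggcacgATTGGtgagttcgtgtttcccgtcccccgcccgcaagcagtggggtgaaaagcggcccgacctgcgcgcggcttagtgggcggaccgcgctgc
Hspa5, chr2:34771840-34772089, + strand: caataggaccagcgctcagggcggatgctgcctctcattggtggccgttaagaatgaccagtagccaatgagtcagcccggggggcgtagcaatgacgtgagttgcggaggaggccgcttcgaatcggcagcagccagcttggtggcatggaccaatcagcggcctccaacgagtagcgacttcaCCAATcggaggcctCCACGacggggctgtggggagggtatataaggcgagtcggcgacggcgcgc
Syvn1, chr19:6046326-6046575, + strand: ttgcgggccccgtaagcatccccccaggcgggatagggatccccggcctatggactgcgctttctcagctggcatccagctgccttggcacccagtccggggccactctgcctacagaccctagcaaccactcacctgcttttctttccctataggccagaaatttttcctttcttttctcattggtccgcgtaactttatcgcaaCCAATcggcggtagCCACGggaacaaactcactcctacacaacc

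Libraries held 12797144 to 30246110 gene counts, and the fasted ones were shallower (15.3 M ± 2.74 against 26.3 M ± 3.90, mean ± SD, n = 3 each). Counts in 1466 odorant and vomeronasal receptor genes, which blood cells do not use, gave a background per kilobase of exon. Over all annotated exons it amounts to 6.35% ± 2.35 of control and 13.1% ± 1.53 of fasted counts (SD, n = 3 each). Genes entered the test with a mean count of at least 5 times this background, which left 10641 genes and 35 of the 37 members. Erythroid and megakaryocyte markers were present in each library, and 9 of them (Gata1, Klf1, Gfi1b, Epor, Itga2b, Kit, Tfrc, Zfpm1 and Tal1) were summed. The sum was 2803, 2131 and 1364 CPM (counts scaled to a common library size) in the controls and 1688, 1892 and 2282 CPM after fasting, in library order. These levels are relative to the counts of the tested genes after TMM scaling. Granulocyte and monocyte transcripts were present as well and are set beside the results further on.

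As a group the members made up a smaller part of the gene counts in the fasted libraries. They took 1.10%, 1.13% and 1.39% of all gene counts in the controls (libraries 1, 2 and 3), against 0.922%, 0.956% and 0.768% after fasting. The means were 1.21% ± 0.158 and 0.882% ± 0.1002 (SD, n = 3 each), and the groups did not overlap. After background subtraction the means were 1.28% ± 0.197 and 0.996% ± 0.114 (SD, n = 3 each). The groups were then still separate, but control library 1 (1.14%) and fasted library 2 (1.06%) lay close together. In bulk RNA, fewer cells of a type and less RNA per cell cannot be told apart. Of the 35 members tested, 31 had a log2 fold change below 0, with a median of -0.28 and a range from -1.27 to 0.40, while the median of all 10641 genes was 0.02.

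No member passed the test at an adjusted p under 0.05. In edgeR's quasi-likelihood test 0 of 35 members and 0 of all genes (0%) passed, and the smallest adjusted p among the members was 0.131. At an unadjusted p under 0.05, 16 members were lower in fasted libraries, against 8.3% of all genes tested, and 1 was higher, against 11.5%. In 15 members the CPM of all fasted libraries lay below that of all control libraries, against 12.9% of all genes, and 1 member, Syvn1, showed the reverse, against 14.4%. Calls depended on the tool and the filter. DESeq2 on the same genes called 10 members, all lower, against 1.65% of all genes called lower by it, and limma-voom called 0. When the 36508 genes that pass edgeR's own filter were scaled and tested together, 18 of 37 members were called lower, against 3.82% of genes. In that fit, which changes the genes tested as well as the scaling, the median of the 10641 genes was -0.50, and the members' median lay -0.32 from it, compared with -0.30 in the test used here.

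**Figure D1:**
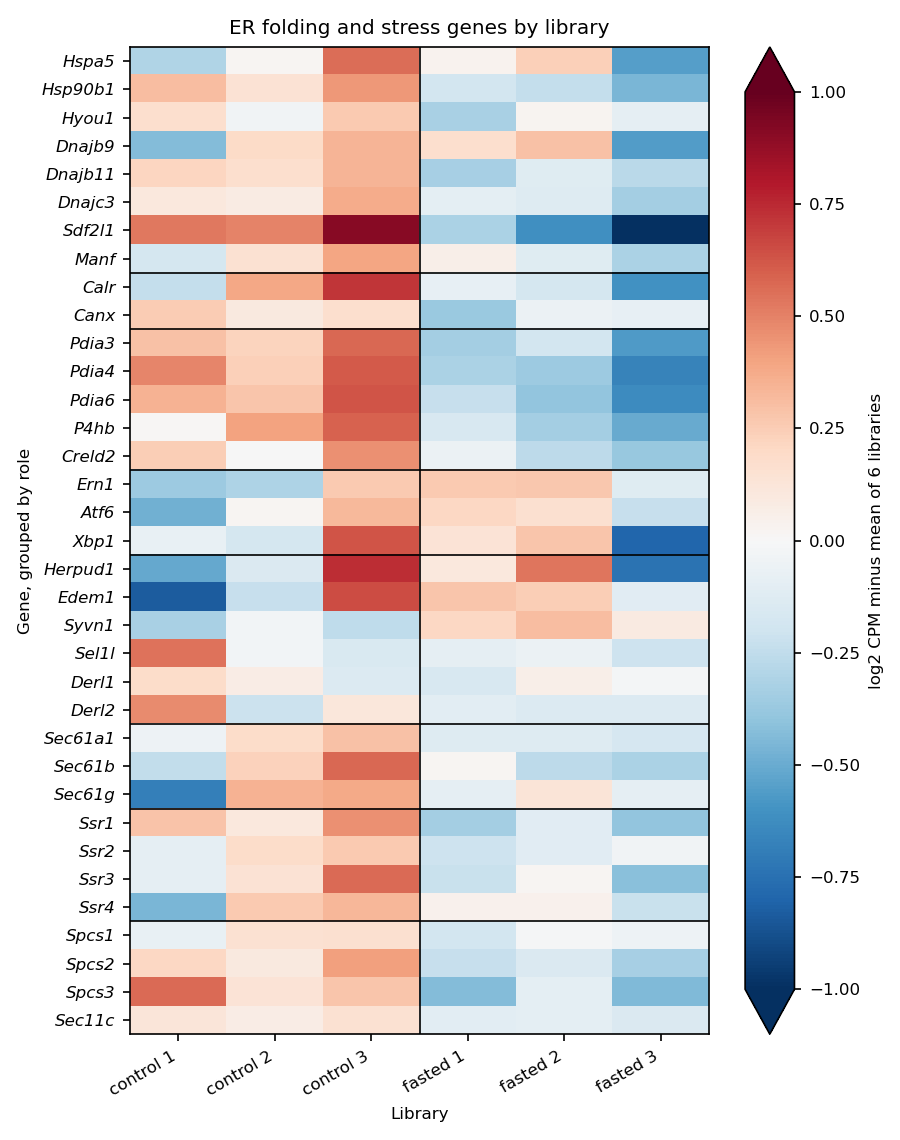
Heat map of the 35 tested members (rows, grouped by role) in the 6 libraries (columns); colour is log2 CPM minus the gene's mean over the libraries. Control library 3 was the highest of the 6 for 28 members and fasted library 3 the lowest for 22.

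Single libraries stood at the ends of this range. Control library 3 was the highest of the 6 libraries for 28 of the 35 members, against 14.3% of all genes, and fasted library 3 was the lowest for 22, against 18.3%. Control library 3 also had the lowest erythroid and megakaryocyte sum of the 6 (1364 CPM) and the highest granulocyte and monocyte sum (19028 CPM). Kit, Tfrc and Itga2b did not have their lowest level in control library 3. Itga2b was at 201 CPM there and was lowest in fasted library 3, at 94.4 CPM. Fasted library 3 had the highest erythroid and megakaryocyte sum of the fasted libraries (2282 CPM) and the lowest granulocyte and monocyte sum of the 6 (1691 CPM). Not all genes of the latter sum followed it. S100a8 and S100a9 were higher in fasted library 3 (396 and 181 CPM) than in the other fasted libraries, and Cebpe and Fcgr3 were lowest in fasted library 2. The part of either sum in the members' values was not tested. Without control library 3 the members' median was -0.22, and 10 members were lower at an unadjusted p under 0.05. Without fasted library 3 the median was -0.28 with 11 such members, and without control library 1 it was -0.36 with 20. Among all genes, 2252 of 10786, 1416 of 10834 and 1625 of 10033 were at that p in these fits, lower and higher together.

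The protein disulfide isomerases had the lowest median log2 fold change of the 8 roles, -0.73. All 5 (Pdia3, Pdia4, Pdia6, P4hb and Creld2) were lower in the 3 fasted libraries than in any control library, and all 5 had an unadjusted p under 0.05. Their summed level was 2595, 2593 and 3241 CPM in control and 1802, 1769 and 1453 CPM in fasted libraries. Pdia4 (ENSMUSG00000025823.9, chromosome 6, 47796141 to 47813430, minus strand), an isomerase with several thioredoxin-like domains, had 287, 241 and 312 CPM in the controls and 164, 159 and 129 CPM after fasting. The lowest control library thus stood well above the highest fasted one, and the log2 fold change was -0.89 (SE 0.15), unadjusted p 0.000163 and edgeR adjusted p 0.131.

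Pdia6 (ENSMUSG00000020571.13, chromosome 12), a partner of Hspa5 that also acts on the sensor Ern1, had 642, 612 and 782 CPM in control and 430, 384 and 326 CPM after fasting. Its gene version in the files, like that of Xbp1, differs from GENCODE M21, from which its position was taken. Its log2 fold change was -0.84 (SE 0.15), unadjusted p 0.000334. Pdia3 (ENSMUSG00000027248.13, chromosome 2), which works with calnexin and calreticulin on glycoproteins, had 1089, 1035 and 1323 CPM in control and 703, 782 and 600 CPM in fasted libraries. The difference was -0.73 on the log2 scale (SE 0.15). P4hb (ENSMUSG00000025130.11, chromosome 11), the founding isomerase of the family, had 467, 612 and 696 CPM against 414, 366 and 326 CPM, a log2 fold change of -0.68 (SE 0.17). Here the gap between control library 1 and fasted library 1 was narrow. Creld2, a stress-induced luminal protein with isomerase-like activity, had 111, 93.4 and 128 CPM in control and 89.9, 78.0 and 72.05 CPM in fasted libraries, so the groups were separate by a few CPM only (log2 fold change -0.47, SE 0.16).

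**Figure D2:**
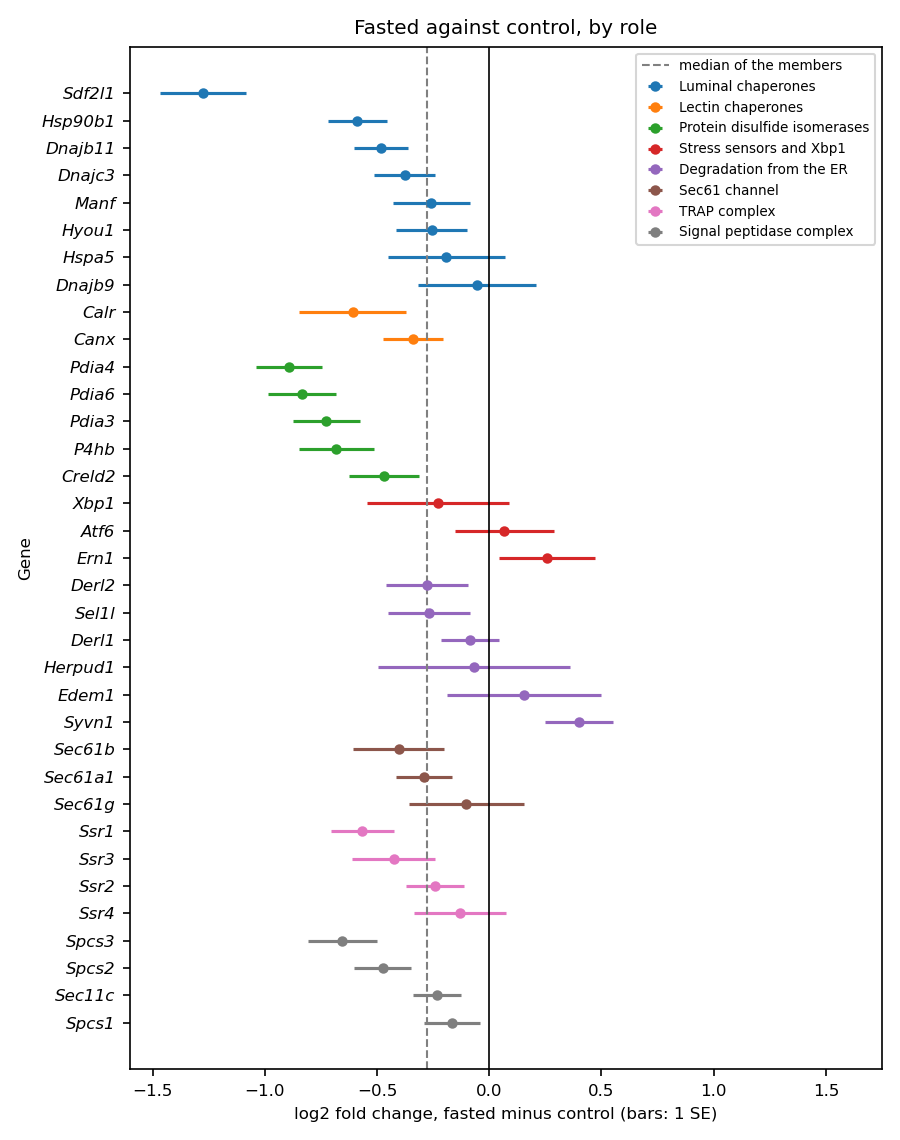
Fitted log2 fold change (fasted minus control, bars 1 SE) for each tested member, coloured by role, with the members' median of -0.28 as a dashed line. The 5 disulfide isomerases lie from -0.89 to -0.47, while the sensors and degradation genes lie from -0.28 to 0.40.

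The luminal chaperones ranged from Sdf2l1, with separate groups, to Hspa5, with overlapping ones; the differences between genes were not tested. All 8 tested members of this role were below 0, 4 at an unadjusted p under 0.05 and 4 without overlap between the groups. Sdf2l1 (ENSMUSG00000022769.9, chromosome 16, 17130138 to 17132383, minus strand), which joins the DnaJ partners in the Hspa5 cycle, had the largest difference of the 35 tested members. It had 203, 198 and 264 CPM in the controls and 113, 91.8 and 70.4 CPM after fasting. The means were 222 ± 36.9 and 91.7 ± 21.3 CPM (SD, n = 3 each). The groups were far apart, with a log2 fold change of -1.27 (SE 0.19), unadjusted p 8.66e-05 and edgeR adjusted p 0.131.

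Hsp90b1 (ENSMUSG00000020048.13, chromosome 10, minus strand), the HSP90 of the ER, had 474, 423 and 518 CPM in control and 337, 325 and 279 CPM after fasting. The groups did not overlap, and its log2 fold change was -0.59 (SE 0.13), unadjusted p 0.00147 and edgeR adjusted p 0.131. The gene shares 10.3% of its exon bases with the pseudogene 1810014B01Rik on the other strand, and the strand setting of the counting is not stated. Dnajb11, a DnaJ partner that hands clients to Hspa5, had 183, 177 and 200 CPM against 125, 145 and 131 CPM, a log2 fold change of -0.48 (SE 0.12). Dnajc3, another DnaJ partner and an inhibitor of Eif2ak3, had 153, 151 and 184 CPM against 133, 130 and 112 CPM (log2 fold change -0.38, SE 0.13). In both genes the fasted libraries lay together below the control libraries.

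Hspa5 (ENSMUSG00000026864.13, chromosome 2, plus strand), the chaperone that also holds the sensors inactive, was the most abundant member per length, at 461 CPM per kilobase of exon over the 6 libraries. It had 1536, 1912 and 2780 CPM in control and 1940, 2228 and 1289 CPM in fasted libraries. The groups overlapped, with 2 fasted libraries above 2 of the control libraries. The log2 fold change was -0.19 (SE 0.26, unadjusted p 0.481), and its sign turned to 0.07 without control library 3 and to 0.0038 without fasted library 3. Hyou1, Manf and Dnajb9, the other members of this role, also overlapped between the groups, with log2 fold changes of -0.26, -0.26 and -0.05. Hyou1 is a large HSP70-like exchange factor for Hspa5, Manf a secreted factor that binds it, and Dnajb9 a DnaJ partner that restrains Ern1.

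The lectin chaperones bind sugar-bearing chains during folding, and both were at an unadjusted p under 0.05. Canx, the membrane-bound lectin, had 1464, 1317 and 1383 CPM in control and 950, 1184 and 1160 CPM in fasted libraries (log2 fold change -0.34, SE 0.13), with no overlap. Calr, its soluble relative, had a log2 fold change of -0.61 (SE 0.24), but its control values ran from 871 to 1684 CPM and overlapped fasted values of 677 to 970 CPM. Control library 1 was the low one.

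**Figure D3:**
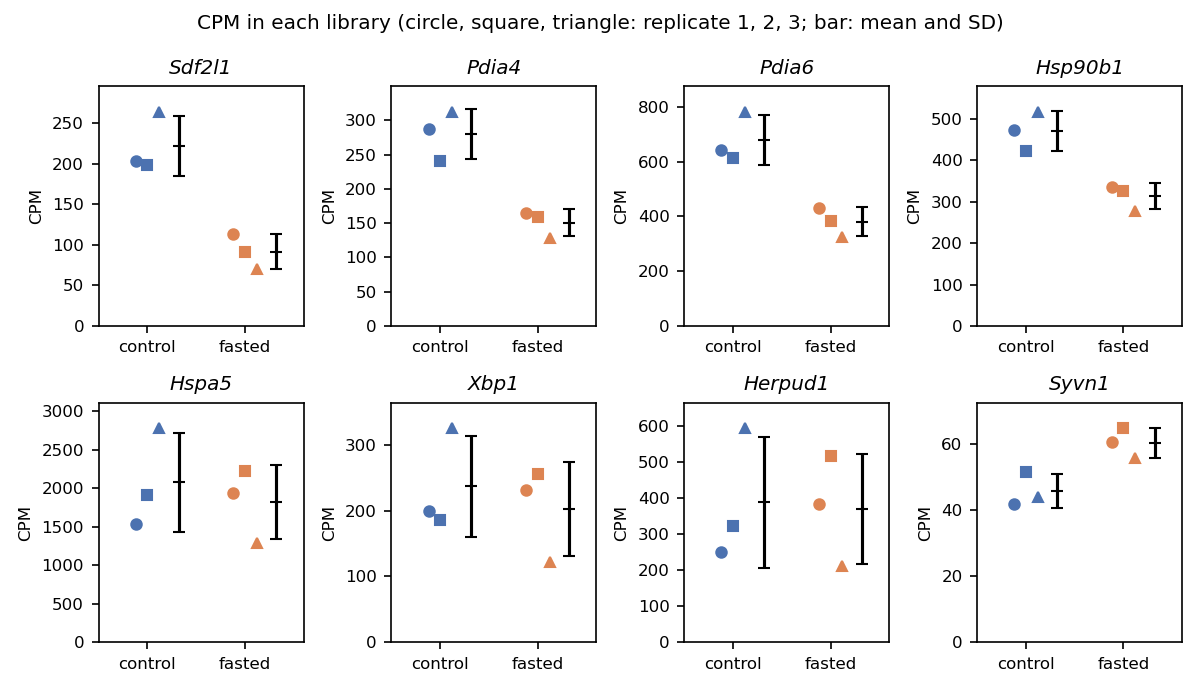
CPM of 8 members in each library (points, shape by replicate number) with the mean and SD of each group (n = 3). Sdf2l1, Pdia4, Pdia6 and Hsp90b1 are separate between the groups, Syvn1 is separate in the other direction, and Hspa5, Xbp1 and Herpud1 overlap.

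The members with a role in protein entry into the ER were all below 0. They were 3 Sec61 channel genes, 4 genes of the translocon-associated protein complex and 4 genes of signal peptidase. Of these, 5 in all had an unadjusted p under 0.05. Outside the 37 genes, the channel gene Sec61a2 was at 0.11 and the signal peptidase gene Sec11a at -0.23, both with overlapping groups. Spcs3 (ENSMUSG00000054408.9, chromosome 8), a subunit of signal peptidase, had 491, 365 and 403 CPM in control and 246, 310 and 244 CPM after fasting. The groups were separate, with a log2 fold change of -0.65 (SE 0.15), unadjusted p 0.00211. Spcs2, another subunit, had 392, 364 and 452 CPM against 290, 309 and 271 CPM (log2 fold change -0.47, SE 0.13). Sec11c, a catalytic subunit, had 227, 219 and 232 CPM against 194, 194 and 189 CPM. Its difference was small (log2 fold change -0.23, SE 0.11, unadjusted p 0.0538), yet the values within each group lay close together. Spcs1, the remaining signal peptidase gene among the members, overlapped between the groups at -0.16 (SE 0.12). It shares 16.3% of its exon bases with Glt8d1 on the other strand.

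Ssr1 (ENSMUSG00000021427.10, chromosome 13), a subunit of the translocon-associated protein complex, had 769, 681 and 867.5 CPM in control and 501, 584 and 481 CPM in fasted libraries. The log2 fold change was -0.57 (SE 0.14), unadjusted p 0.00268. Its partners Ssr2, Ssr3 and Ssr4 overlapped between the groups, with log2 fold changes of -0.24, -0.43 and -0.13. Sec61a1, which forms the pore, had 255, 300 and 324 CPM in control and 242, 242 and 235 CPM in fasted libraries. The fasted libraries lay close together just under the lowest control library (log2 fold change -0.29, SE 0.12), and 8.16% of its exon bases are shared with the antisense gene Gm44170. Sec61b and Sec61g, the small channel subunits, overlapped, at -0.40 (SE 0.20) and -0.10 (SE 0.26).

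The stress sensors tested and Xbp1 overlapped between the groups. Ern1, the sensor that splices Xbp1 RNA, had 31.2, 32.4 and 48.2 CPM in control and 48.1, 48.5 and 36.9 CPM in fasted libraries (log2 fold change 0.26, SE 0.21). Atf6, the sensor cut in the Golgi to release a transcription factor, had 34.1, 48.3 and 59.6 CPM against 55.01, 53.1 and 40.7 CPM (log2 fold change 0.07, SE 0.22). Both overlapped between the groups, with unadjusted p of 0.256 and 0.767, and both are low per length, at 5.00 and 5.25 CPM per kilobase. Background would account for 11.6% of control and 20.4% of fasted counts of Ern1, and for 10.4% and 20.7% of those of Atf6. The sign of Atf6 was below 0 after background subtraction (-0.03), and that of both genes was below 0 when background-level genes were scaled and tested with the rest. With all genes passing edgeR's filter, the median of the genes at 5 times the background was -0.50. Ern1 lay 0.27 and Atf6 0.09 above that median.

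Eif2ak3, the sensor that slows translation, was not tested because its mean count was 3.46 times the background. It had 11.2, 15.5 and 13.9 CPM in the controls and 16.3, 20.1 and 18.6 CPM in fasted ones as counted. After background subtraction it had 9.30, 12.1 and 9.42 CPM in control and 8.89, 13.999 and 11.9 CPM in fasted libraries, so the separation of the raw values was gone. Xbp1 (ENSMUSG00000020484.19, chromosome 11), whose spliced RNA encodes the active factor, had 200, 186 and 325 CPM in control and 231, 255 and 121 CPM in fasted libraries. The log2 fold change was -0.23 (SE 0.32, unadjusted p 0.494), with control library 3 and fasted library 3 at the ends. Counts per gene do not separate spliced from unspliced Xbp1.

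Degradation genes were mixed. Syvn1 (ENSMUSG00000024807.18, chromosome 19), the ubiquitin ligase of ER-associated degradation, was the one member above 0 at an unadjusted p under 0.05. It had 41.7, 51.3 and 44.0 CPM in control and 60.5, 64.7 and 55.6 CPM in fasted libraries, a log2 fold change of 0.40 (SE 0.15), unadjusted p 0.0259 and edgeR adjusted p 0.204. All 3 fasted libraries lay above the control libraries, but the sign was below 0 (-0.11) when all genes passing edgeR's filter were scaled and tested together. In that fit the median of the genes at 5 times the background was -0.50. Syvn1 lay 0.39 above that median, against 0.38 in the test used here. Its partner Sel1l overlapped between the groups at -0.27 (SE 0.18), as did Derl1 at -0.08 (SE 0.13), Derl2 at -0.28 (SE 0.18) and the mannosidase-like Edem1 at 0.15 (SE 0.34).

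Herpud1, which organises the ligase complex and is a strong target of the unfolded protein response, is added here after its values were seen, for its spread. It had 250, 322 and 594 CPM in control and 383, 516 and 213 CPM in fasted libraries. The highest library was 2.38 times the lowest among controls and 2.42 times among fasted libraries, and the log2 fold change was -0.07 (SE 0.43). The same ratios were 1.30 and 1.28 for Pdia4 and 1.23 and 1.21 for Hsp90b1. In Herpud1, Hspa5, Xbp1 and Dnajb9, control library 3 was the highest and fasted library 3 the lowest. This order was not particular to them, as Pdia4 and Hsp90b1 had it too. Among the 35 tested members, control library 3 was the highest for 28 and fasted library 3 the lowest for 22. Derl3, a derlin of highly secretory cells, had a mean count only 1.98 times the background and was not tested.

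Genes of the same pathway outside the 37 were mostly below 0 as well. Of 63 further ER genes, 59 were tested, 41 were below 0, and the median log2 fold change was -0.13. edgeR's quasi-likelihood test called 0 of them at an adjusted p under 0.05, limma-voom 0 and DESeq2 3, all lower. At an unadjusted p under 0.05, 11 were lower and 1 was higher, against 8.3% and 11.5% of all genes. The oligosaccharyltransferase, which attaches sugar chains to entering proteins, held 7 of those 11 among its 11 genes. Its subunit Rpn1 had 798, 667 and 750 CPM in control and 472, 532 and 466 CPM in fasted libraries (log2 fold change -0.59, SE 0.13). Rpn2, Ddost, Stt3a and Magt1 followed with log2 fold changes of -0.46, -0.47, -0.44 and -0.45, all without overlap between the groups. The other regulators of the unfolded protein response were mostly above 0. Above 0 were 7 of 8 tested, among them Ddit3, Atf4, Trib3 and Ppp1r15a (named after their values were seen), and the median of the 8 was 0.35, where 52.3% of all genes tested were above 0. Control library 1 was the low one in 3 of these. Atf4 had 111, 239 and 288 CPM in the controls and 289, 330 and 204 CPM after fasting. Ddit3 had 21.9, 42.7 and 65.3 CPM against 54.7, 66.1 and 43.9 CPM, and Ppp1r15a had 203, 548 and 478 CPM against 646, 691 and 598 CPM. Without control library 1, 6 regulators were tested and all 6 were above 0. Their median was 0.07, with Atf4 at 0.07, Ddit3 at 0.03 and Ppp1r15a at 0.34. Trib3 and Creb3l2, at 0.91 and 0.55 with all libraries, were not tested in that fit, so the medians cover different genes. Control library 1 was also low in immediate early genes, at 2661 CPM against 7980 and 7666 CPM in the other controls, and the part of this was not tested. Of the 8, Creb3l2 alone had an unadjusted p under 0.05 (log2 fold change 0.55).

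**Figure D4:**
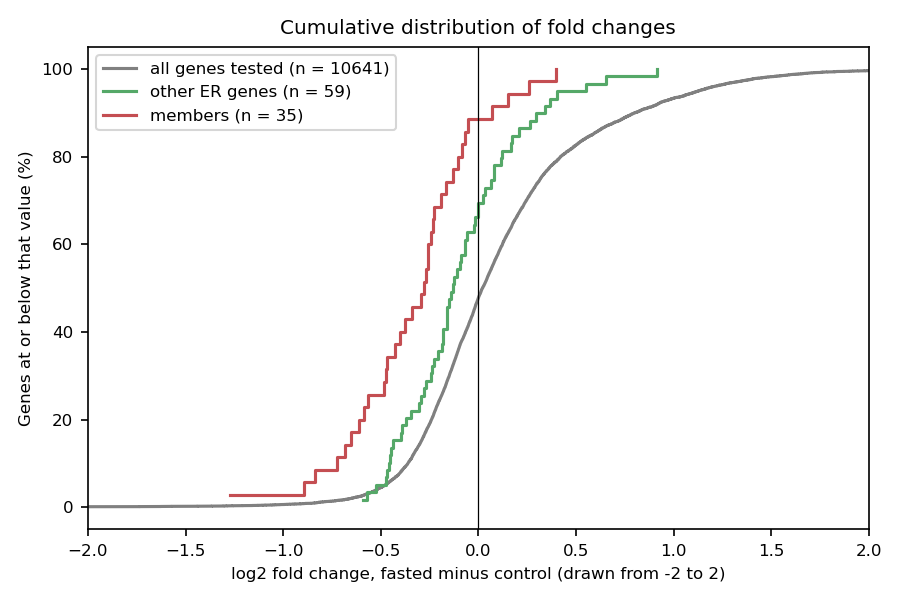
Cumulative share of genes (vertical axis, percent) at or below each log2 fold change (horizontal axis) for the 35 tested members, the 59 other ER genes and all 10641 genes tested. The medians are -0.28, -0.13 and 0.02.

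Members with the ERSE letters lay on both sides of 0. Of the 9 members with them, 8 were tested, and their median log2 fold change was -0.42. It was -0.28 in the 19 tested members whose promoter window lacked them. The carriers ranged from Pdia6 at -0.84 and Calr at -0.61 to Hspa5 at -0.19 and Syvn1 at 0.40. Sdf2l1 and Pdia4, the members with the lowest fold changes, had no exact ERSE in the window, and Herpud1, with an ERSE-II, had the widest interval of the tested members.

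Marker sums of other cells are given beside these results. Some were separate between the groups, while the granulocyte and monocyte sum and the plasma cell sum overlapped. The summed level of 13 granulocyte and monocyte genes was 3873, 12431 and 19028 CPM in the controls (libraries 1, 2 and 3), against 4621, 3000 and 1691 CPM after fasting. Mpo, the peroxidase of granulocyte precursors, alone had up to 10884 CPM in control library 3. The disulfide isomerases summed to 2595, 2593 and 3241 CPM and to 1802, 1769 and 1453 CPM in the same order. Control library 3 was the highest and fasted library 3 the lowest of the 6 in both sums, while control library 1 was below fasted library 1 in the first sum and above it in the second. The part of these cells in the members' values was not tested. Immediate early and dissociation stress genes summed to 2661 to 7980 CPM in control and 9617 to 10633 CPM in fasted libraries, and their part in the result was not tested. Mast cell and basophil genes summed to 325 to 492 CPM against 189 to 309 CPM, and their part was likewise not tested. Gata2 was the largest part of that sum in each library and overlapped between the groups. It had 273, 234 and 153 CPM in control and 179, 224 and 132 CPM in fasted libraries. Cpa3 and Mcpt8 were lower in all fasted libraries, Ms4a2 overlapped at a log2 fold change of -0.84, and Prss34 was at 0.70. Fcer1a was not tested. Sums overlapped for 8 plasma cell genes (224 to 319 against 156 to 401 CPM), and the plasma cell gene Mzb1 was under 1 CPM in each library. Ighm was the largest part of that sum in each library and overlapped (log2 fold change -0.02), as did Igkc (-0.36). Sdc1 and Tnfrsf17 were higher in all fasted libraries (0.66 and 1.40), at 6.37 and 7.19 times the background. So was Prdm1 as counted, which was not tested, at 1.21 times the background. Sums of 8 B and T lymphocyte genes were 61.0 to 94.8 CPM in control and 103 to 173 CPM in fasted libraries. Only 3 of these 8 genes were tested, and background would make up 10.1 to 39.0 CPM of the sum by library. The background share of counts was larger in fasted libraries (13.1% against 6.35%), and the sums were not corrected for it. No listed marker was at 0 in all 6 libraries.

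**Figure D5:**
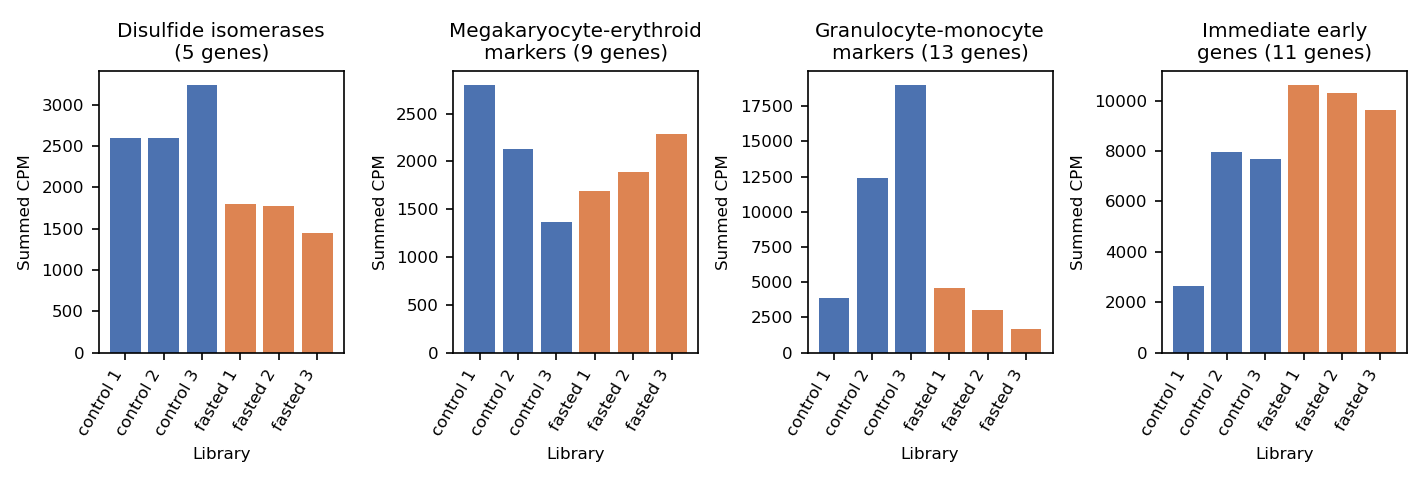
Summed CPM (bars from 0) in each library of the 5 disulfide isomerases and of 3 marker lists, with control in blue and fasted in orange. Control library 3 is the highest and fasted library 3 the lowest in both the granulocyte-monocyte sums (19028 and 1691 CPM) and the isomerase sums (3241 and 1453 CPM), and control library 1 has 3873 and 2595 CPM.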

How the data were processed

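Bulk RNA-seq of sorted progenitors gave 6 libraries, 3 control and 3 fasted, grouped by the labels. The deposited table holds raw counts of reads per gene, made by the authors. The submitters' processing notes name HISAT2 2.2.1, featureCounts 2.0.1 and GRCm38. Their settings, strand included, are not given in the sources used here. Gene symbols and positions came from GENCODE M21 (GRCm38): 54435 of 55487 gene IDs matched with their version and 55227 without regard to it.

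Genes had to pass filterByExpr and have a mean count of at least 5 times the background, which left 10641. They were scaled by TMM and tested with edgeR 4.0.16 (robust quasi-likelihood, group only, R 4.3.3), with Benjamini-Hochberg adjustment over all of them and a threshold of 0.05. CPM are counts scaled to a common library size, the tested-gene counts times the TMM factor. Totals of 12797144 to 30246110 counts set the counting precision. The steps were run on simulated counts with larger changes than those of the members and no difference in background between the groups. That run therefore cannot tell how well changes of the size seen here are found.

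Alternatives were other filters and scalings, background subtraction, DESeq2 1.42.0, limma-voom (limma 3.58.1), a fit without robust settings, a replicate block and leaving out each library. Values by library are given for Hspa5, Hsp90b1, Xbp1, the 3 sensors, the 8 members with the smallest p and up to 8 further members, by p, whose groups did not overlap. Of the other ER genes, the 5 with the smallest p are named. The members and lists were chosen with earlier results of these data known.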

Additional observations from a re-analysis of the deposited data

How the results depend on the processing

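Of the 35 tested members, 24 were below 0 under all 18 alternatives and 11 changed sign under at least 1. In 3 alternatives background-level genes were scaled and tested with the rest, which changed the scaling, the spread estimate and the number of genes adjusted over together. They used all genes passing edgeR's filter (36508), all genes with a count (52922) or those at 2 times the background (20627). In that order, edgeR called 1813, 2849 and 1624 genes, and the members' median was -0.79, -0.83 and -0.62. The members lower at an unadjusted p under 0.05 numbered 29, 30 and 26 and the higher ones 0. Among all genes tested, 10432, 11455 and 6838 were at that p, lower and higher together. The other ER genes' median was -0.64, -0.67 and -0.46. The median of the genes at 5 times the background moved to -0.50, -0.54 and -0.32. Under the same 3 settings Atf6 was at -0.41, -0.44 and -0.25, Edem1 at -0.29, -0.32 and -0.15, and Ern1 at -0.22, -0.26 and -0.063, and Syvn1 was at -0.11 and -0.14 under the first 2. DESeq2 called 503 genes against 0 in edgeR and 0 in limma-voom. Which of these changes moved the counts was not tested.

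Dnajb9 was at 0.018 with a minimum of 10 times the background and at 0.0055 with upper-quartile factors, and Atf6 was at -0.034 after background subtraction. Leaving out 1 library gave 0 to 3 genes called (3 without control library 1 and 3 without control library 3) and a members' median of -0.41 to -0.22. At an unadjusted p under 0.05, 10 to 20 members were lower and 0 to 2 higher. Among the 10033 to 11106 genes tested, 1416 to 2252 were at that p, lower and higher together. The other ER genes had a median of -0.18 to -0.11. Without control library 1, Atf6 was at -0.11, Edem1 at -0.12 and Derl1 at 3.66e-05. Without control library 2, Sec61g was at 0.0039. Without control library 3, Hspa5 was at 0.073, Herpud1 at 0.37, Xbp1 at 0.063, Sec61g at 0.065, Dnajb9 at 0.10 and Ssr4 at 0.0070. Atf6 was at -0.02 without fasted library 1 and at -0.0082 without fasted library 2. Without fasted library 3, Hspa5 was at 0.0038, Herpud1 at 0.21, Xbp1 at 0.034 and Dnajb9 at 0.16. Over the 6 such fits, the highest value of Atf6 was 0.26 and that of Edem1 0.64, and the lowest was -0.39 for Hspa5, -0.41 for Herpud1, -0.45 for Xbp1, -0.36 for Sec61g, -0.24 for Dnajb9, -0.18 for Derl1 and -0.33 for Ssr4.

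With the replicate number as a block, edgeR called 0 genes, the members' median was -0.26, and 11 members were lower and 0 higher at an unadjusted p under 0.05. Among all 10641 genes, 1551 were at that p, lower and higher together. Deviations of same-numbered libraries correlated at -0.16, 0.13 and -0.27, so the numbers were not taken as a pairing. Background limits Eif2ak3 and Derl3, where it would account for 36.1% and 68.0% of fasted counts.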
